A study of Homo sapiens with 3 samples.

Results

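The genes of tissue factor, of the plasminogen activators and of their receptor and inhibitors were examined for ETS1 binding. These are F3, TFPI, TFPI2, THBD, PLAU, PLAUR, PLAT, SERPINE2 and SERPINB2, which make up 9 of the 19812 protein-coding genes in GENCODE release 44 mapped to GRCh37 (hg19). A peak belonged to a gene if its midpoint lay in the gene body or within 100 kb of it, and 74 of the 26970 consensus ETS1 peaks (0.274%) met this rule. ETS1 binding was measured by ChIP-Seq in the established line SCC25, which derives from a tongue squamous cell carcinoma, in order to map the loci that this transcription factor occupies in a mesenchymal model of head and neck cancer. There were 3 ChIP samples of untreated cells, of which 2 used the ETS1 antibody C20 and 1 the ETS1 antibody 501A. The authors pooled them into 1 list of peaks that passed IDR, a procedure that keeps peaks ranked alike in replicate experiments. The list gives positions only, so that neither a level nor a spread between samples exists for any peak, the antibodies could not be set against each other, and every value below is a count or a position of the pool.

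Tissue factor, the product of F3, is the membrane receptor that starts coagulation when it binds factor VIIa, and it is often exposed on carcinoma cells. TFPI blocks this complex, TFPI2 is a related inhibitor that acts mainly on plasmin and other matrix-degrading proteases, and thrombomodulin (THBD) turns thrombin into an activator of protein C. Urokinase (PLAU), bound to its receptor (PLAUR), and tissue plasminogen activator (PLAT) convert plasminogen to plasmin, which dissolves fibrin and opens matrix for migrating cells, while protease nexin-1 (SERPINE2) and PAI-2 (SERPINB2) are serpins that inhibit the activators.

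ETS factors bind DNA around the core GGAA, and AP-1 binds the 7-mers TGAGTCA and TGACTCA. The ETS 6-mers searched were AGGAAG with its variant AGGAAA, together with CGGAAG and its variant CGGAAA. Both AP-1 7-mers and the octamer TGANGTCA, which CREB and AP-1 proteins can bind, were searched as well, always on both strands. A match is a description of the letters and not of a bound site. Sequences below were read from GRCh37 along the strand of the gene, 5′ to 3′, with matches in capitals. The stretches just upstream of the canonical transcription start sites (TSSs) of F3, PLAU, TFPI2, THBD and SERPINE2 each lie inside a peak. Those of TFPI2, THBD and SERPINE2 hold 0, 2 and 1 ETS 6-mers and no AP-1 7-mer. Of these stretches, those of F3 and PLAU are shown, and that of TFPI is shown because no peak was found near it:
F3 promoter, chr1:95007316-95007565, minus strand: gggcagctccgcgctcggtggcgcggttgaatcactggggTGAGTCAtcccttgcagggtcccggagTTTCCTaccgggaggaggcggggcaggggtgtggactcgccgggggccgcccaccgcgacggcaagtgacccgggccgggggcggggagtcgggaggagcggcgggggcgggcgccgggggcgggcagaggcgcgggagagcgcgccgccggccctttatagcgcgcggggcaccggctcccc
PLAU promoter, chr10:75670662-75670861, plus strand: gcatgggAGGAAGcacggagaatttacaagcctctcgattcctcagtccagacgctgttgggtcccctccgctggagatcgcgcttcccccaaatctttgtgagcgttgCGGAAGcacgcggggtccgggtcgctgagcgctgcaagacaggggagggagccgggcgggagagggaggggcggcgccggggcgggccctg
TFPI promoter, chr2:188419220-188419419, minus strand: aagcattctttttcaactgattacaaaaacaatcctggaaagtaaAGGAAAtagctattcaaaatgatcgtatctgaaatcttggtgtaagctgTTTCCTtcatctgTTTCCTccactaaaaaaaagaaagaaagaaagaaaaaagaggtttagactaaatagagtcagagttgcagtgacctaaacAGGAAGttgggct

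The F3 stretch holds TGAGTCA and, 20 bases on, TTTCCT, which is AGGAAA on the other strand and overlaps the kappaB-like element known from this promoter. The PLAU stretch holds AGGAAG and CGGAAG. The TFPI stretch has 4 ETS matches, more than either of the others, although it lies far from every peak. The stretches shown for PLAU and TFPI run from -228 to -29 and from -257 to -58 relative to the canonical TSS. The first ETS match of each lies more than 200 bases upstream of it. Among 200 bases upstream of all 19812 canonical TSSs, 52.5% held an ETS 6-mer and 2.49% an AP-1 7-mer. In 250 bases, the length shown for F3, whose AP-1 match lies outside the nearest 200, these shares were 59.5% and 3.06%, so that an ETS match alone is common.

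The next stretches come from peaks away from those promoters and show ETS and AP-1 letters close together. The first lies in the upstream TSS peak of PLAU and is the 90 bases before the first annotated TSS, where an ETS 6-mer runs directly into an octamer. The rest are an intergenic peak of PLAU with 2 AP-1 matches, the peak upstream of PLAUR, and the distal peaks of F3 and THBD with the closest pairs in those windows:
PLAU upstream element, chr10:75668845-75668934, plus strand: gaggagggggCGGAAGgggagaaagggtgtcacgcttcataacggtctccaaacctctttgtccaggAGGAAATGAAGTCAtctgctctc
PLAU intergenic peak, chr10:75654459-75654591, plus strand: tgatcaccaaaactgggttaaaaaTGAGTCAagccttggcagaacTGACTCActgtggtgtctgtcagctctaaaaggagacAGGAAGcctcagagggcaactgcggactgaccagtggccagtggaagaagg
PLAUR upstream peak, chr19:44179705-44179812, minus strand: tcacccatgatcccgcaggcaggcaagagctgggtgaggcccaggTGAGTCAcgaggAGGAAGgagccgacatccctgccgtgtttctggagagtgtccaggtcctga
F3 distal peak, chr1:95087140-95087247, minus strand: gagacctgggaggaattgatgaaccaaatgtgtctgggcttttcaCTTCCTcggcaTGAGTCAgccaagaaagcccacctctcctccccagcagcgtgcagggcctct
THBD distal peak, chr20:23123836-23123958, minus strand: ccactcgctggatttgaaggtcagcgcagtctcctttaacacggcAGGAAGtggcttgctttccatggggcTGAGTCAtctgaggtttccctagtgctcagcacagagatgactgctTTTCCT

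In the PLAUR and the F3 stretch alike, 5 bases separate the ETS 6-mer from the AP-1 7-mer. In the PLAU upstream element no base separates AGGAAA from TGAAGTCA. An enhancer of adjoining ETS and AP-1 elements is long known upstream of human PLAU, and these letters lie in that region.

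ETS1 peaks lay at the TSS of 7 of the 9 genes, in the body of 7 and within 100 kb of 8. F3, TFPI2, THBD, PLAU, PLAUR, PLAT and SERPINE2 each had a peak midpoint within 500 bp of an annotated TSS, and TFPI and SERPINB2 had none. Over all protein-coding genes, 53.9% had a peak at a TSS, 54.2% in the body and 88.4% within 100 kb. The share of 77.8% with a TSS peak has an exact 95% binomial interval of 40.0% to 97.2%, which covers counting error only and includes the background. At the canonical TSS alone the count was again 7, beside 46.9% of all genes.

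The windows differed widely in how many peaks they held. The counts were 17 for PLAU, 13 each for F3 and PLAUR, 12 for PLAT, 11 for THBD, 4 for SERPINE2, 2 each for TFPI2 and SERPINB2, and 0 for TFPI. The median over the 9 genes was 11 peaks, beside 4 over all protein-coding genes, and 5.15 peaks per 100 kb of window beside 1.64. The median density was 2.88 with windows of 50 kb, beside 1.7 over all genes, 2.94 in the first 13485 lines of the list, beside 0.868, and 1.96 among peaks at least as wide as the median, beside 0.85. PLAU exceeded 96.8% of all genes by the number of peaks and F3 and PLAUR 90.6%, and windows with at least 13 peaks belonged to 9.38% of genes. At the other end TFPI2 and SERPINB2 exceeded 22.4% of genes, and TFPI was among the 11.6% without a peak. The genes of the inhibitors TFPI, TFPI2, SERPINE2 and SERPINB2 held the 4 lowest counts, and whether they differ from the other 5 as a group was not tested.

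**Figure D1:**
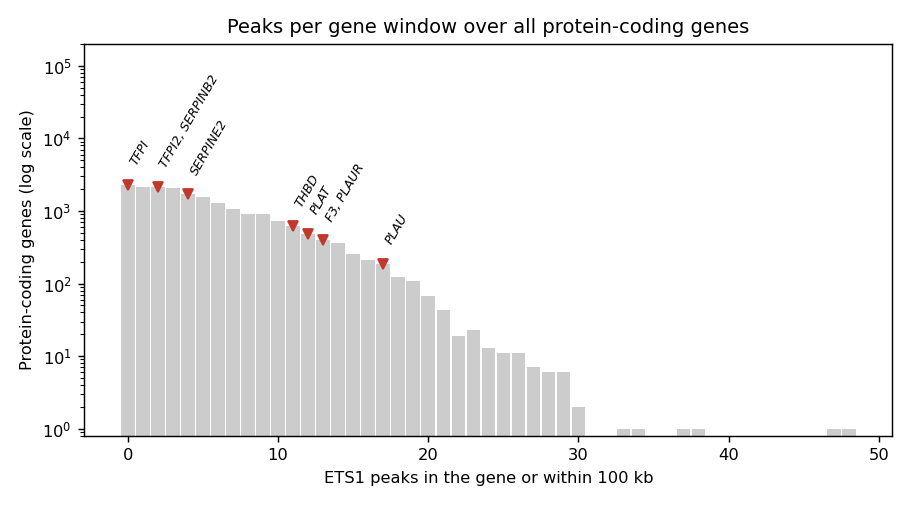
Number of protein-coding genes (vertical axis, log scale) by the number of ETS1 peaks in the gene or within 100 kb (horizontal axis). Grey bars count all 19812 genes and red triangles mark the bars that hold the 9 genes, from TFPI at 0 to PLAU at 17 peaks.

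By position, 8 of the 74 peaks lay at a TSS of their own gene, 6 in its introns and 0 in its exons away from a TSS. Another 15 lay at the TSS of another annotated gene, 5 inside another protein-coding gene, 9 inside a noncoding gene and 31 (41.9%, exact 95% interval 30.5% to 53.9%) in intergenic sequence. In all, 36 of the 74 (48.6%) were nearer to the canonical TSS of 1 of the 9 genes than to that of any other coding gene, and 38 were nearer to another gene. The limit of 100 kb cuts through populated sequence, with 18 peaks from 80 to 100 kb beyond the gene bodies and 15 from 100 to 120 kb.

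**Figure D2:**
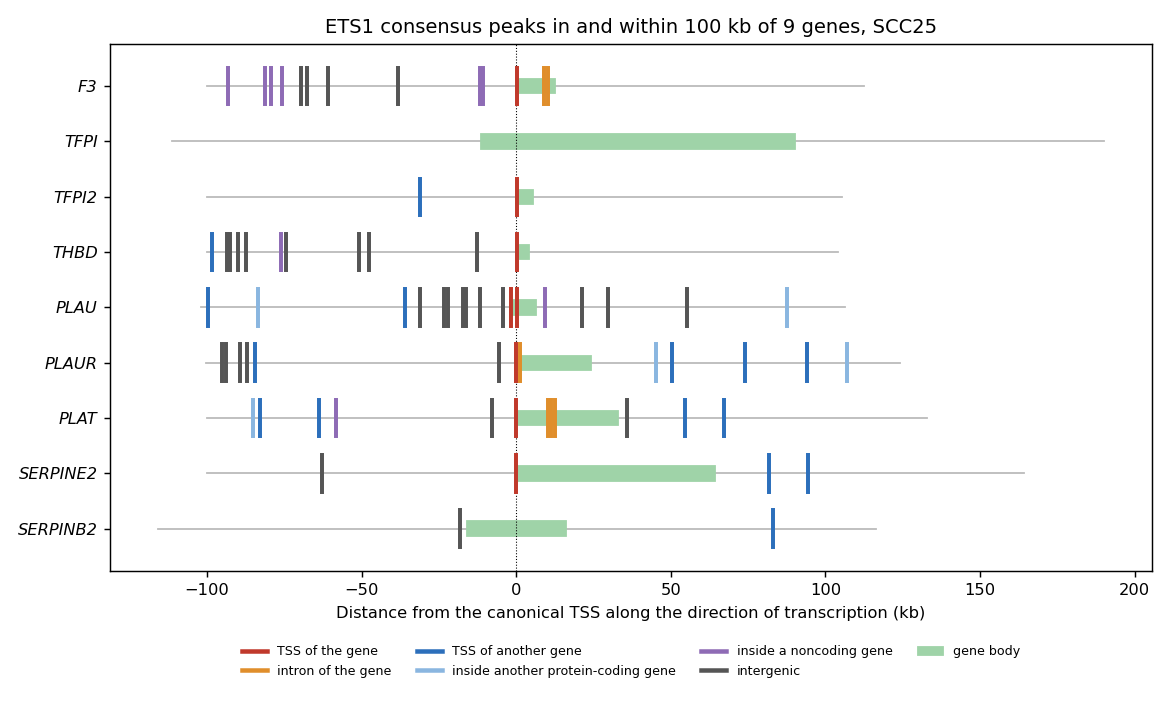
Positions of the 74 peaks (ticks, coloured by class) relative to the canonical TSS of each gene, in kb along the direction of transcription; green boxes are gene bodies and grey lines the windows searched. All flanking peaks of F3 and THBD lie upstream, those of PLAU lie on both sides, and the TFPI window is empty.

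F3 had 1 peak at its TSS, 2 in its introns and 10 upstream, and none downstream within 100 kb. The TSS peak (chr1:95006147-95008159) was 2013 bp wide, wider than 84.5% of peaks at TSSs, and its midpoint lay 162 bp inside the gene. The intronic peaks lay 8.88 and 10.1 kb into the gene, 756 bp apart. Upstream, a pair lay at 10.7 and 11.7 kb, a single peak at 38.4 kb, and a group of 7 between 60.8 and 93.3 kb, of which 4 lie inside the noncoding gene SLC44A3-AS1.

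All 13 of these peaks were nearer to the F3 TSS than to any other coding TSS on the chromosome, and no other coding TSS lies in the window. Among the 1969 coding genes that are alone in their window in this way the median was 1 peak, 34.5% had none, and 35 genes (1.78%) had at least 13. Of the 2658 genes with at least 10 peaks beside the body, all peaks were upstream in 16 (0.602%) and all downstream in 21 (0.79%). F3 and THBD are both among the 16. The first peak downstream of F3 lay 111 kb beyond its end, at the TSS of ABCD3, a peroxisomal transporter gene.

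No F3 peak held an AP-1 7-mer in its central 300 bp (0 of 13, exact 95% upper limit 24.7%), while 8 held an ETS 6-mer there. Among all nuclear peaks these shares were 16.7% and 69.3%, and the former lies below that limit. Among nuclear peaks over 1500 bp from any TSS they were 27% and 72%, and 27% lies above the limit. All F3 peaks but the TSS peak lay at least 8.88 kb from the canonical F3 TSS. Over the whole length of the peaks 4 of 13 had an AP-1 match, the promoter and distal matches shown above among them. This share was 33% among all nuclear peaks and 45% among those over 1500 bp from any TSS. The median width of the 13 peaks was 451 bp, beside 969 bp for the whole list and 706 bp for its peaks over 1500 bp from a TSS.

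TFPI, the inhibitor of the tissue factor complex, had no peak in its body of 102 kb or in the 100 kb on either side. The nearest peaks lay 874 kb beyond its end, at the TSS of the integrin gene ITGAV, and 1880 kb before its start, at WDR75. The stretch without a peak (chr2:187455598-190305488) is 2.85 Mb long, contains 0 unknown bases in the reference, and holds the TSSs of 7 coding genes. Besides TFPI these are FAM171B, ZSWIM2, CALCRL, GULP1 and the collagen genes COL3A1 and COL5A2. Of the 26945 gaps between neighbouring peaks, 109 were at least as long. Copy number and mappability of this region in SCC25 were not measured here, and their part was not tested.

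TFPI2 had 1 peak at its TSS (chr7:93519259-93520473), with its midpoint 199 bp inside the gene and within 500 bp of the start of the divergent noncoding gene TFPI2-DT. The only other peak of its window lay 31.1 kb upstream, at the TSS of GNG11, a G protein subunit gene. Downstream the next peak was 653 kb away, at VPS50. TFPI and TFPI2, whose products are both Kunitz-type inhibitors, therefore had 0 and 1 peak nearest to their own TSS.

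THBD had the widest TSS peak of the group. It spans 4372 bp (chr20:23027988-23032359), is wider than 99.5% of TSS peaks, and covers 57.5% of this gene of 4.04 kb. All 10 other peaks lay upstream, the first at 12.8 kb and 8 of them from 47.5 to 93.6 kb in intergenic sequence or the noncoding LINC00656, and none lay downstream for 184 kb. The canonical TSS of CD93, a receptor of endothelial and myeloid cells, was nearer than that of THBD to 9 of the 11 peaks. The TSS peak held 15 ETS 6-mers over its length but none in its central 300 bp.

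PLAU had 2 peaks at annotated TSSs, which 5.53% of genes had. The first (chr10:75668651-75669681, 1031 bp) is centred 1.72 kb upstream of the canonical TSS and covers an annotated TSS 1955 bp upstream. The second (chr10:75670183-75672137, 1955 bp) is centred 270 bp inside the gene. With 10 ETS 6-mers, 1 AP-1 7-mer and 1 octamer the first peak held more matches than the second, which had 5 ETS 6-mers and none of the others. The first peak counts as a TSS peak through that annotated start alone.

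**Figure D3:**
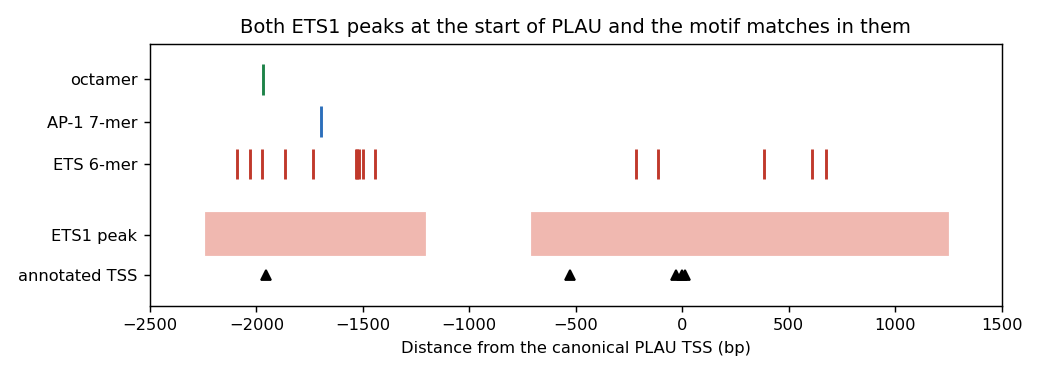
Both peaks at the start of PLAU (pink bars), annotated TSSs (black triangles) and matches to the ETS 6-mers, AP-1 7-mers and the octamer (ticks) by distance from the canonical TSS in bp. The octamer and the only AP-1 match lie in the upstream peak, and motifs outside the peaks are not drawn.

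Around PLAU a further 10 peaks lay upstream and 5 downstream. Those at 4.18, 11.6, 16.4 and 17.4 kb upstream and at 9.22, 21.4 and 29.7 kb downstream were nearest to the PLAU TSS, which gives 9 peaks with the TSS peaks, a number that 0.949% of genes reached. Peaks at 22.0, 23.4 and 31.3 kb upstream were nearer to CAMK2G, a calmodulin-dependent kinase gene whose own TSS held another. The remaining ones lay at the TSS of the sulfotransferase gene NDST2, inside CAMK2G, and toward or inside the vinculin gene VCL. An ETS 6-mer was found in the central 300 bp of 15 of the 17 peaks and an AP-1 7-mer in 5, beside 69.3% and 16.7% of all nuclear peaks. These backgrounds were 72% and 27% for nuclear peaks over 1500 bp from any TSS, and 66.6% and 5.32% within 500 bp of one.

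An octamer directly next to an ETS 6-mer, as in the PLAU upstream element, occurred in 3 of the 74 peaks (4.05%), and in 143 of the 26961 nuclear peaks (0.53%). The others of the 3 are the THBD TSS peak and the THBD peak 98.5 kb upstream. This arrangement was counted after it had been seen at PLAU, and without that peak 2 of 73 (2.74%) held it.

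PLAUR, the urokinase receptor gene, had a TSS peak (chr19:44173914-44174675) centred 27 bp from the canonical TSS, a peak in the first part of the gene at 1.05 kb, and 1 at 5.52 kb upstream. These 3 were nearest to its own TSS. The other 10 of its 13 peaks were nearest to another gene in a window that holds 10 other coding TSSs. They include the TSS peaks of SMG9, ZNF428, PINLYP and of IRGQ with SRRM5 and ZNF576, as well as 4 intergenic peaks from 87.2 to 95.2 kb upstream that lie closest to SMG9. An AP-1 7-mer was present in the central 300 bp of 6 of the 13 peaks in the window, the largest number among the windows, beside 16.7% of all nuclear peaks. That background was 27% for nuclear peaks over 1500 bp from any TSS and 5.32% for those within 500 bp of one. Of the 6 peaks with an AP-1 7-mer, only those at 1.05 and 5.52 kb were nearest to PLAUR. The PLAUR TSS peak had no AP-1 7-mer in its central 300 bp. With the same total of 13 peaks, PLAUR was thus the nearest coding gene to 3 and F3 to 13.

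**Figure D4:**
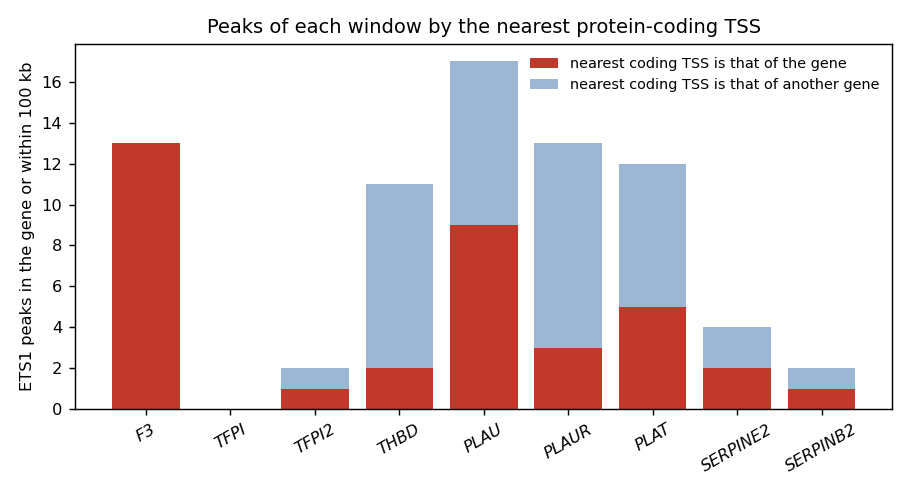
Peaks in each window (vertical axis, bars from 0) split by whether the nearest canonical coding TSS is that of the gene itself (red) or of another gene (blue). F3 has 13 of 13 in red, PLAU 9 of 17, PLAUR 3 of 13 and THBD 2 of 11.

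PLAT had 1 peak at its TSS (chr8:42064774-42065423), whose midpoint lay 15 bp upstream, and 3 in introns at 10.2, 11.1 and 12.5 kb. With 4 peaks in the body it had more than any of the other 8 genes, and a further peak lay 7.82 kb upstream. F3 and PLAT were the only members with a body peak over 1500 bp from every annotated TSS, beside 19.4% of all genes. The other 7 peaks were nearest to AP3M2, an adaptor complex gene, or to IKBKB, the kinase that activates NF-kappaB, with TSS peaks at both. The PLAT TSS peak was narrow, at 650 bp wider than 9.58% of TSS peaks.

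SERPINE2 had 1 peak at its TSS (chr2:224903219-224904679), centred 54 bp inside, and 1 intergenic peak 62.8 kb upstream. Its body of 64.3 kb held no other peak. Both remaining peaks lay downstream, at the TSS of the mitochondrial ribosomal gene MRPL44 and at that of an unnamed gene that overlaps WDFY1.

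SERPINB2 had no peak in its body or at any of its annotated TSSs. Its nearest peak (chr18:61536648-61537116) lay 18.1 kb upstream of the canonical TSS and 2.04 kb before the first annotated base of the gene. The centre of this peak is shown because it is the only one nearest to SERPINB2, and it holds AGGAAA and CTTCCG:
SERPINB2 upstream peak, chr18:61536807-61536956, plus strand: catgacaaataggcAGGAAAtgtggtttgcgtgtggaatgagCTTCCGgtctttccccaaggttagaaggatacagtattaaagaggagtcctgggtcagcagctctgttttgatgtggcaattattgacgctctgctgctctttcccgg

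The second peak of the SERPINB2 window lay at the TSS of SERPINB8, at the far end of the same serpin cluster. Of the 10 SERPINB genes of the cluster, only SERPINB5, which encodes maspin, and SERPINB8 had a TSS peak.

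The CpG content of the promoters ran partly alongside these counts. The ratio of observed to expected CpG in the 500 bp on either side of the TSS was 0.882 for SERPINE2, 0.798 for F3, 0.762 for TFPI2, 0.751 for THBD, 0.727 for PLAU and 0.608 for PLAUR, all with a TSS peak. It was 0.304 for TFPI and 0.0997 for SERPINB2, both without one. PLAT is the exception, with a ratio of 0.277 and a peak, which was neither in the first 13485 lines of the list nor among the peaks at least as wide as the median. Over all genes 64.6% of 13195 promoters with a ratio of at least 0.6 had a peak at the canonical TSS, and 11.5% of 6617 below it. The part of CpG content in the presence of a peak was not tested.

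**Figure D5:**
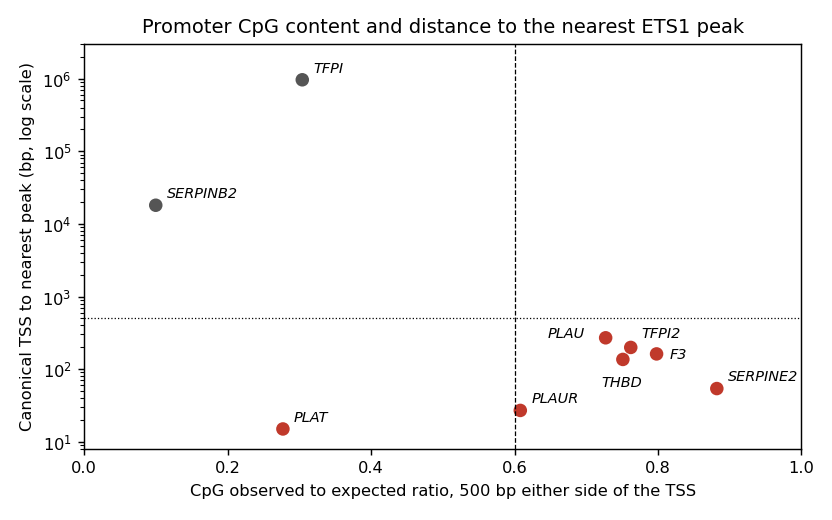
Ratio of observed to expected CpG around the canonical TSS (horizontal axis) against the distance from that TSS to the nearest ETS1 peak in bp (vertical axis, log scale), with genes that have a TSS peak in red and the others in grey. The dashed line marks a ratio of 0.6 and the dotted line 500 bp, and PLAT is the only gene to the left of the dashed line with a peak below the dotted one.

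Over the 74 peaks as a set, 55 (74.3%, exact 95% interval 62.8% to 83.8%) held an ETS 6-mer in the central 300 bp, beside 69.3% of all nuclear peaks. An AP-1 7-mer was found in 19 (25.7%, 16.2% to 37.2%), beside 16.7%, both in 17 (23%), beside 12.1%, and both within 30 bp of each other in 6 (8.11%), beside 4.74%. The 45 distal peaks, over 1500 bp from a TSS, had an ETS 6-mer in 80% of cases, beside 72% of all such peaks, an AP-1 7-mer in 26.7%, beside 27%, and the close pair in 11.1%, beside 7.83%. Of the 23 peaks within 500 bp of a TSS, 14 (60.9%) held an ETS 6-mer, beside 66.6%. An AP-1 7-mer was present in 4 of them (17.4%, 4.95% to 38.8%), beside 5.32%, and the close pair in 1 (4.35%), beside 1.38%. The interval of the share with both motifs is 14.0% to 34.2%. For the distal peaks that share was 24.4% (12.9% to 39.5%), beside 19.5%. At 300 bp the intervals of the AP-1 shares of the whole set and of the TSS peaks reach down to the background. The whole set had an AP-1 7-mer in 21.6% (12.9% to 32.7%) of windows of 200 bp, beside 12.1%, in 36.5% (25.6% to 48.5%) at 600 bp, beside 25.2%, and in 47.3% (35.6% to 59.3%) of whole peaks, beside 33%. For the 45 distal peaks the AP-1 share was 24.4% at 200 bp, beside 19.8% of all such peaks. It was 40% at 600 bp, beside 39.3%, and 46.7% over whole peaks, beside 45%. The intervals of these 45 peaks include each of these backgrounds. For the TSS peaks the share was 8.7% (1.07% to 28.0%) at 200 bp, beside 3.7%, 26.1% (10.2% to 48.4%) at 600 bp, beside 9.46%, and 43.5% (23.2% to 65.5%) over whole peaks, beside 18.6%. Of these 23 TSS peaks, 8 lie at a TSS of the members and 15 at that of another gene. The 4 with an AP-1 7-mer in the central 300 bp are the upstream PLAU peak and peaks at TSSs of GNG11, IRGQ and IKBKB. Over whole peaks the members with an AP-1 7-mer at their own TSS were F3, PLAU and PLAUR. The peaks of a window share a locus and are not independent of each other.

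The remaining genes of coagulation and plasminogen activation were also counted. Of 48 listed, 20 (41.7%) had a peak at a TSS, beside 53.9% of all coding genes, 22 (45.8%) in the body, beside 54.2%, and 44 (91.7%) within 100 kb, beside 88.4%. Their median was 4 peaks, as over all genes. Among 26 genes of clotting factors and their regulators, 9 had a TSS peak, and PLG, which encodes plasminogen, had no peak within 100 kb. F7, whose product is the ligand of tissue factor, had 5 peaks in its window and none in its body.

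Receptors and binding partners had a TSS peak in 7 of 13 cases (53.8%), a share like the 53.9% of all coding genes. ANXA2 and S100A10, which form a plasminogen receptor on the cell surface, had 5 and 3 peaks in the body, and PLGRKT, another plasminogen receptor, had 1. LRP1, which takes up complexes of protease and serpin, had 3 body peaks and 14 in its window. The integrin genes ITGAV and ITGB3 and the protease-activated receptor gene F2RL1 also had TSS peaks. The other protease-activated receptor genes, F2R, F2RL2 and F2RL3, had no peak at a TSS or in the body.

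ST14, which encodes matriptase and can activate pro-urokinase, had 4 body peaks but none at a TSS. The protease genes MMP2 and MMP9 had 5 and 1 peaks in the body, each with 1 at the TSS.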

How the data were processed

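ETS1 ChIP-Seq of 3 SCC25 samples was sequenced by the authors, mapped to hg19 with Bowtie 1.1.1 keeping reads with a single locus, merged with SAMtools 1.3, and called with MACS2 against a merged input before IDR. The deposited list holds the chromosome, start and end of each consensus peak and no other value, with no signal, score, summit, read depth or value per sample. The methods state a range of reads for the samples without saying which sample had how many, so that depth behind a single peak is unknown, and intervals cover counting error only.

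Peaks were placed by their midpoints, converted to positions counted from 1, on GENCODE 44 genes in GRCh37. Canonical TSSs were those of the annotation, and 9 mitochondrial peaks were left out of motif counts (26961 nuclear peaks). No test was made, since the list has no replicates. Shares have exact (Clopper-Pearson) 95% intervals. Counting of TSS peaks and motifs was tested on simulated data.

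The members and lists were chosen with earlier results of these data known. All 9 members are named, and other genes where a peak lay within 500 bp of their TSS, where their TSS was nearest to most peaks of a window, or where they act in the pathway and had a TSS peak or most body peaks. ABCD3, VPS50, WDR75, PLG, F7, F2R, F2RL2, F2RL3, SERPINB5, VCL, the noncoding genes and the genes around TFPI were named after their values were seen. Displayed stretches come from peaks or promoters outside exons of coding genes, and several were picked after their matches were seen. Stretches of PLAT are not shown, and some items are not reported here.

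Python 3.11.15, numpy 2.4.6, scipy 1.17.1, pandas 2.3.3, pysam 0.24.0 and matplotlib 3.10.9 were used.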

Additional observations from a re-analysis of the deposited data

How the results depend on the processing

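Of 55 alternatives over 10 results, 37 changed no count beyond 1.5 times or beyond its interval and 18 did. Taking the first 13485 lines of the list, whose order has no stated meaning, left 46 peaks in the windows, a median density of 2.94 per 100 kb (0.868 over all coding genes) and 10 other pathway genes with a TSS peak. Peaks at least as wide as the median left 34 in the windows, 13 nearest to the genes and a density of 1.96 (0.85). Windows of 50 kb held 43 peaks at a density of 2.88 (1.7), and windows of 10 kb held 21, with 20 nearest to the genes. With TSSs of all gene types, 22 peaks were nearest to the genes. Body peaks over 1500 bp from every TSS, an alternative chosen after seeing the data, were found in 2 genes. The share of peaks with an ETS 6-mer was 89.2% in 600 bp, 51.4% in 200 bp and 93.2% over the whole peak, beside 89.3%, 55.4% and 94.5% of all nuclear peaks. Over the whole peak 47.3% had an AP-1 7-mer and 45.9% both, beside 33% and 30.9%, with both intervals above these, while the distal peaks alone had 46.7% and 44.4%, beside 45% and 41.3% of all distal peaks. In 200 bp 13.5% of the whole set had both (6.68% to 23.5%), beside 7.24%, which this interval includes. Counting the octamer as AP-1, also chosen after seeing the data, gave 27%, beside 21.2%.

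Genes with a TSS peak numbered 5 in the first part of the list, without TFPI2 and PLAT, beside 35.3% of all coding genes, and 5 among the wider peaks, without PLAUR and PLAT, beside 41.8%. Joining peaks within 1 kb gave 6, beside 52.4%. The 8 genes with a peak in the window stayed 8 in every alternative run. Over all coding genes the share with such a peak was 77.9% in the first part of the list and 77.5% among the wider peaks. It was 88.3% after joining, 82.8% with windows of 50 kb and 71.5% with windows of 10 kb. The exact interval of the share of members, 51.8% to 99.7%, includes each of these backgrounds. No paired analysis was possible because the list is pooled, its columns carry no sample and no result comes from a test. For the same reason no replicate was left out. Depth, antibody and copy number could not be examined, and a gene without a peak is one without a peak that passed IDR at this depth.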
